A study of Nasonia vitripennis with 79 samples.

Results

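The genes described here are the 150 genes with LOC identifiers whose level was furthest above that of diploids in heads of triploid females of the parasitoid wasp Nasonia vitripennis in both an early and a late generation. For each gene the difference of mean log2(CPM + 1) was taken between triploid and diploid female heads at generation F2 and again at F14, and the lower of both differences was ranked. CPM, counts per M, is a gene's count scaled to the total count of its library, and is not corrected for gene length. The 150 genes were the top of 13792 genes with LOC identifiers, in a table of 14621 genes. The genes were thus chosen by the measured values of the 20 female head libraries, and those values are given as a description, with no test. Male heads, male abdomens and female abdomens played no part in the choice.

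In Nasonia, as in other wasps, bees and ants, males usually develop from unfertilised eggs and are haploid, whereas females develop from fertilised eggs and are diploid. Triploid females and diploid males carry an added chromosome set, so that the same tissue can be set side by side at different copy numbers of the whole genome. An added set raises the copy number of every gene alike, and in counts scaled to library size a change shared by all genes is not visible. What remains visible is a gene that departs from the rest of the transcriptome.

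Bulk poly(A) RNA was sequenced from heads and abdomens of wasps of the WOM line, 1 day after emergence. The line is a neo-polyploid line that was induced by knocking down a sex determination gene, and all groups belong to it. Females were triploid or diploid at F2 and F14, and males were diploid or haploid at F3 and F15. Each of the 16 groups had 5 libraries, except F14 triploid female abdomens, which had 4. Nothing in the labels says whether replicate libraries of a group were made from separate animals, pools or cultures. The p-values given here therefore describe the spread from library to library, which may be technical. In bulk samples, fewer cells of a type and less RNA per cell cannot be told apart.

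Several libraries stood apart. Depth was 12.6 to 95 M counts per library. At F14, triploid abdomens were sequenced to 16.9 to 17.5 M and diploid abdomens to 46.0 to 95 M. Lop1, an opsin of the eye, was at 0.196 to 7.09 CPM in F2 triploid abdomens but at 1808 to 4269 CPM in the libraries labelled F2 diploid female abdomen. The female germ line markers oskar and nanos summed to 994 to 1102 CPM in F2 triploid abdomens and to 2.47 to 38.7 CPM in those diploid libraries, so their values are given without a test. Among F3 diploid male heads, library D13 had the lowest sum of 5 neuronal markers (645 CPM, against 1127 to 1636 CPM in the other libraries of the group) and the highest sum of 4 cuticle and epidermis markers (30810 CPM, against 5300 to 12170 CPM). Among F2 triploid heads, D31 and D32 had more of the synaptic gene Syt1 and less Lop1 than the other libraries.

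In triploid heads the 150 genes lay a median of 1.81 above diploid heads at F2 and 1.18 above them at F14, both as differences of mean log2(CPM + 1). Over all genes with LOC identifiers the medians were 0.07 and -0.16. Over those that averaged 1 CPM or more in triploid heads, as every member did, they were 0.26 and -0.34. The F2 difference ranged from 0.87 to 6.31 over the 150 genes and the F14 difference from 0.88 to 3.77. For 77.3% of the genes the F2 difference was the larger of both, and 67.3% were at least 1 log2 unit higher in both generations. Between generations, F14 minus F2, the median difference of the 150 genes was -0.17 within triploid heads and 0.43 within diploid heads. Over the LOC identifiers that averaged 1 CPM or more in triploid heads, these medians were near the same, at -0.19 and 0.38. The libraries of triploid and diploid heads did not overlap for 128 genes at F2, where 17.7% of all genes lay apart in this direction, and for 99 genes at F14, where 3.45% of all genes did. At the edge of the list, LOC100679323 was the last gene inside at 0.8684 and LOC100115907 the first outside at 0.8683. The genes next to them were LOC116738519 (0.873) and LOC116416068 (0.8711) inside, and LOC100116764 (0.8677) and LOC116738678 (0.8614) outside, so the list has no natural border.

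**Figure D1:**
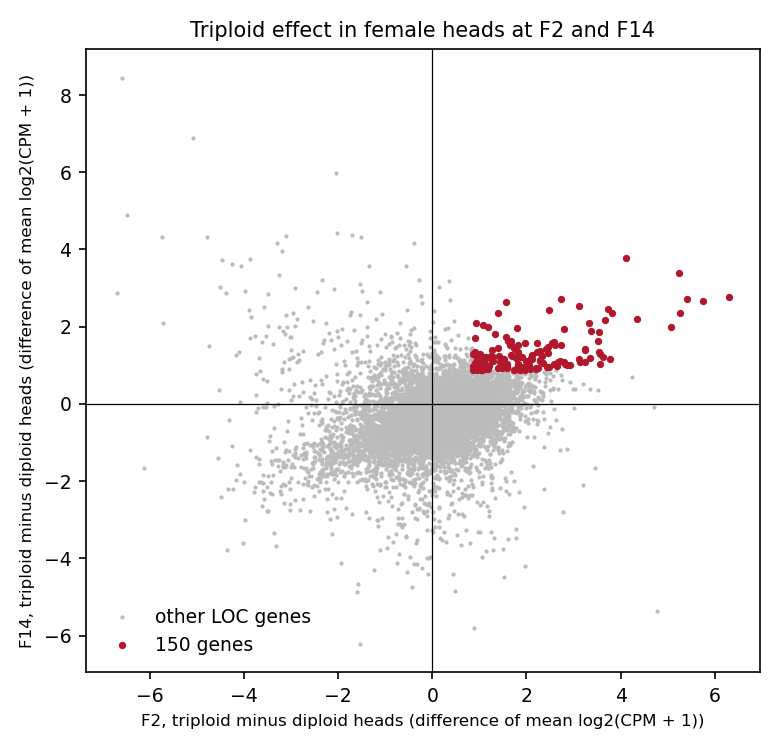
Each point is a gene with a LOC identifier, with the triploid minus diploid difference of mean log2(CPM + 1) in female heads at F2 on the horizontal axis and at F14 on the vertical axis. The 150 genes (red) fill the upper right corner, with differences from 0.87 to 6.31 at F2 and from 0.88 to 3.77 at F14.

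The annotation gives these genes a biotype and a place but no product name, so no roles are assigned. RefSeq lists 127 of the 150 as protein coding and 21 as long non-coding RNAs, which are transcripts without a long open reading frame. Long non-coding RNAs made up 14% of the 150 genes, 7.30% of all LOC identifiers and 2.66% of the 9477 LOC identifiers that averaged 1 CPM or more in triploid heads. Of the remaining pair, LOC107981454 is annotated as a transcribed pseudogene and LOC116418142 as ribosomal RNA. Reads of a pseudogene can be shared with the gene it copies, so the level of LOC107981454 is uncertain.

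The genes were spread over the genome, with 38 on chromosome 1, 25 on chromosome 2, 24 on chromosome 3, 35 on chromosome 4, 24 on chromosome 5 and 4 on unplaced sequence. In that order these were 25.3%, 16.7%, 16%, 23.3%, 16% and 2.67% of the list. Of the 9477 LOC identifiers expressed in triploid heads, 22.4%, 21.6%, 17.6%, 19.3%, 18.3% and 0.77% lay there. Direct neighbours formed 4 pairs, a number that was not set against a background. The pairs were LOC116416031 with LOC100679260 on chromosome 1, LOC116417366 with LOC100122134 and LOC100679541 with LOC100118179 on chromosome 4, and LOC100122274 with LOC100122259 on chromosome 5. The genes were short: the median gene span was 3083 bp, against 4694 bp for the 9477 expressed LOC identifiers. A median transcript length of 0.685 relative to the typical gene was estimated from the ratio of counts to TPM (149 genes), against 1.03 for expressed LOC identifiers. RefSeq records only 1 transcript for 70% of them and for 45.1% of expressed LOC identifiers. These are descriptions without a test.

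The gene ranked highest, the protein-coding LOC116738455 on chromosome 1, was near absent from diploid heads. At F2 it had 12.5, 15.4, 25.01, 25.04 and 30.8 CPM in triploid heads, against 0, 0, 0, 0 and 1.95 CPM in diploid heads. At F14 it had 9.37, 11.7, 18, 23.2 and 25.4 CPM in triploid heads, against 0, 0, 0, 0 and 2.43 CPM in diploid heads. The groups did not overlap in either generation, and 4 of 5 diploid libraries were at 0 in each.

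LOC107981331, protein coding and on chromosome 5, had the largest F2 difference of the list. At F2 it had 152, 212, 267, 291 and 582 CPM in triploid heads, against 1.38, 1.43, 2.87, 3.34 and 3.92 CPM in diploid heads. At F14 it had 138, 139.6, 157, 179.6 and 353 CPM in triploid heads, against 13.3, 20.9, 25.4, 29.97 and 49.3 CPM in diploid heads. The triploid levels were alike in both generations, and the diploid heads were higher at F14 than at F2.

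The same shift of the diploid heads was seen in the long non-coding RNA LOC116417160 on chromosome 1. At F2 it had 58.6, 72.7, 78.0, 98.5 and 135 CPM in triploid heads, against 0.350, 0.380, 0.632, 0.739 and 0.949 CPM in diploid heads. At F14 it had 89.8, 107.4, 136, 179 and 222 CPM in triploid heads, against 1.32, 32.2, 35.3, 40.8 and 43.5 CPM in diploid heads. Only library D91 of the F14 diploid heads was near the F2 diploid level.

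LOC100678481 had 40.03, 76.3, 121, 126 and 150.4 CPM in F2 triploid heads, against 0.678, 1.04, 1.49, 1.94 and 2.79 CPM in F2 diploid heads. LOC100122274, which lies beside LOC100122259, had 36.1, 62.7, 73.9, 79.5 and 87.9 CPM in F2 triploid heads, against 0.191, 0.315, 0.442, 0.732 and 1.28 CPM in F2 diploid heads. Neither gene had a diploid library within reach of a triploid one at F2. At F14 their differences were 3.39 for LOC100678481 and 2.72 for LOC100122274, against 5.24 and 5.42 at F2.

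Other genes of the top 12 rested on few libraries. LOC100679789 had 0.683, 4.83, 6.66, 10.8 and 186 CPM in F2 triploid heads, against 0.279, 0.614, 0.615, 0.769 and 1.09 CPM in F2 diploid heads, and the 186 CPM came from D33. LOC100679002 had 118.6 and 111.2 CPM in D31 and D32, whereas the other F2 triploid heads had 4.85, 5.10 and 8.09 CPM and F2 diploid heads 1.13 to 5.55 CPM. The groups overlapped at F2 for both genes. The remaining members of the top 12 were LOC103317439 (3.11 at F2 and 2.52 at F14), the long non-coding RNA LOC116417251 (3.73 and 2.47), LOC116416141 (3.83 and 2.36), LOC103315841 (5.27 and 2.36) and LOC100118466 (4.36 and 2.21).

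Among the 8 members with the most counts in triploid heads the differences were smaller. LOC100118179 had 5249, 5461, 8392, 9457 and 10505 CPM in F2 triploid heads, against 2116, 2175, 2246, 2342 and 3069.5 CPM in F2 diploid heads. At F14 it had 3764, 3921, 4711, 4910.5 and 7092 CPM in triploid heads, against 1289, 1568, 1816, 1819 and 1894 CPM in diploid heads. The groups did not overlap in either generation. Its neighbour LOC100679541 was higher by 1.00 at F2 and 1.03 at F14. LOC100216354 had 709, 871, 958, 1004 and 1736 CPM in F2 triploid heads, against 256, 307, 329, 339 and 351 CPM in F2 diploid heads. The pseudogene LOC107981454 had the most counts of the list and the groups overlapped at F2, with 5945 to 25254 CPM in triploid heads and 5109 to 6710.2 CPM in diploid heads. The other members among the 8 with the most counts, LOC116416031, LOC100119565, LOC100115623 and LOC100678090, differed by 0.92 to 1.46 at F2 and by 1.01 to 1.20 at F14.

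As a group summary, the mean log2(CPM + 1) over the 150 genes was 5.72 (5.21 to 6.01) in F2 triploid heads and 3.63 (3.53 to 3.72) in F2 diploid heads. At F14 it was 5.52 (5.27 to 6.14) in triploid heads and 4.16 (3.87 to 4.29) in diploid heads. The 150 genes took 3.33 to 6.71% of all counts in F2 triploid heads and 1.45 to 1.76% in F2 diploid heads. Within the F2 triploid heads, D33 was the highest library for 46.7% of the genes and D32 for 33.3%, and within F14 triploid heads D82B was the highest for 62.7%. Of the tissue markers, only those of cuticle and epidermis and those of muscle are compared between triploid and diploid heads here. These did not move one way across generations. The neuronal, eye and immune markers are not compared, so nothing is said of their direction. The 4 cuticle and epidermis markers summed to 19.5 to 452 CPM in triploid and 798 to 4145 CPM in diploid heads at F2, and to 287 to 11260 CPM in triploid and 4.31 to 18.8 CPM in diploid heads at F14. The 4 muscle markers summed to 391 to 777 CPM in triploid and 1987 to 5196 CPM in diploid heads at F2, and to 1121 to 6255 CPM in triploid and 1033 to 1383 CPM in diploid heads at F14. The part of these markers in the choice of genes was not tested.

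**Figure D2:**
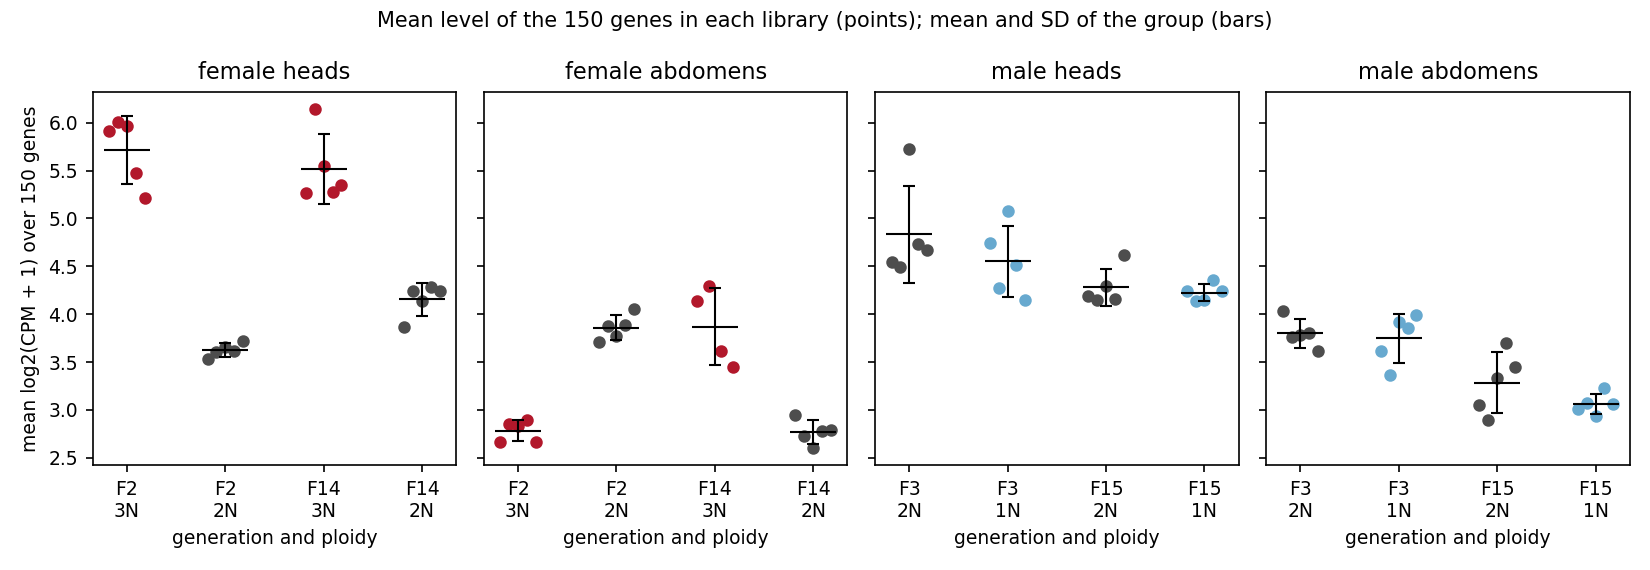
Mean log2(CPM + 1) over the 150 genes in each of the 79 libraries (points), by sex, tissue, generation and ploidy, with the mean and SD of each group as bars. Female heads chose the genes. F14 triploid female abdomens (3.44 to 4.29) lie above F14 diploid ones (2.60 to 2.95), and the diploid and haploid males overlap in each tissue and generation.

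**Figure D3:**
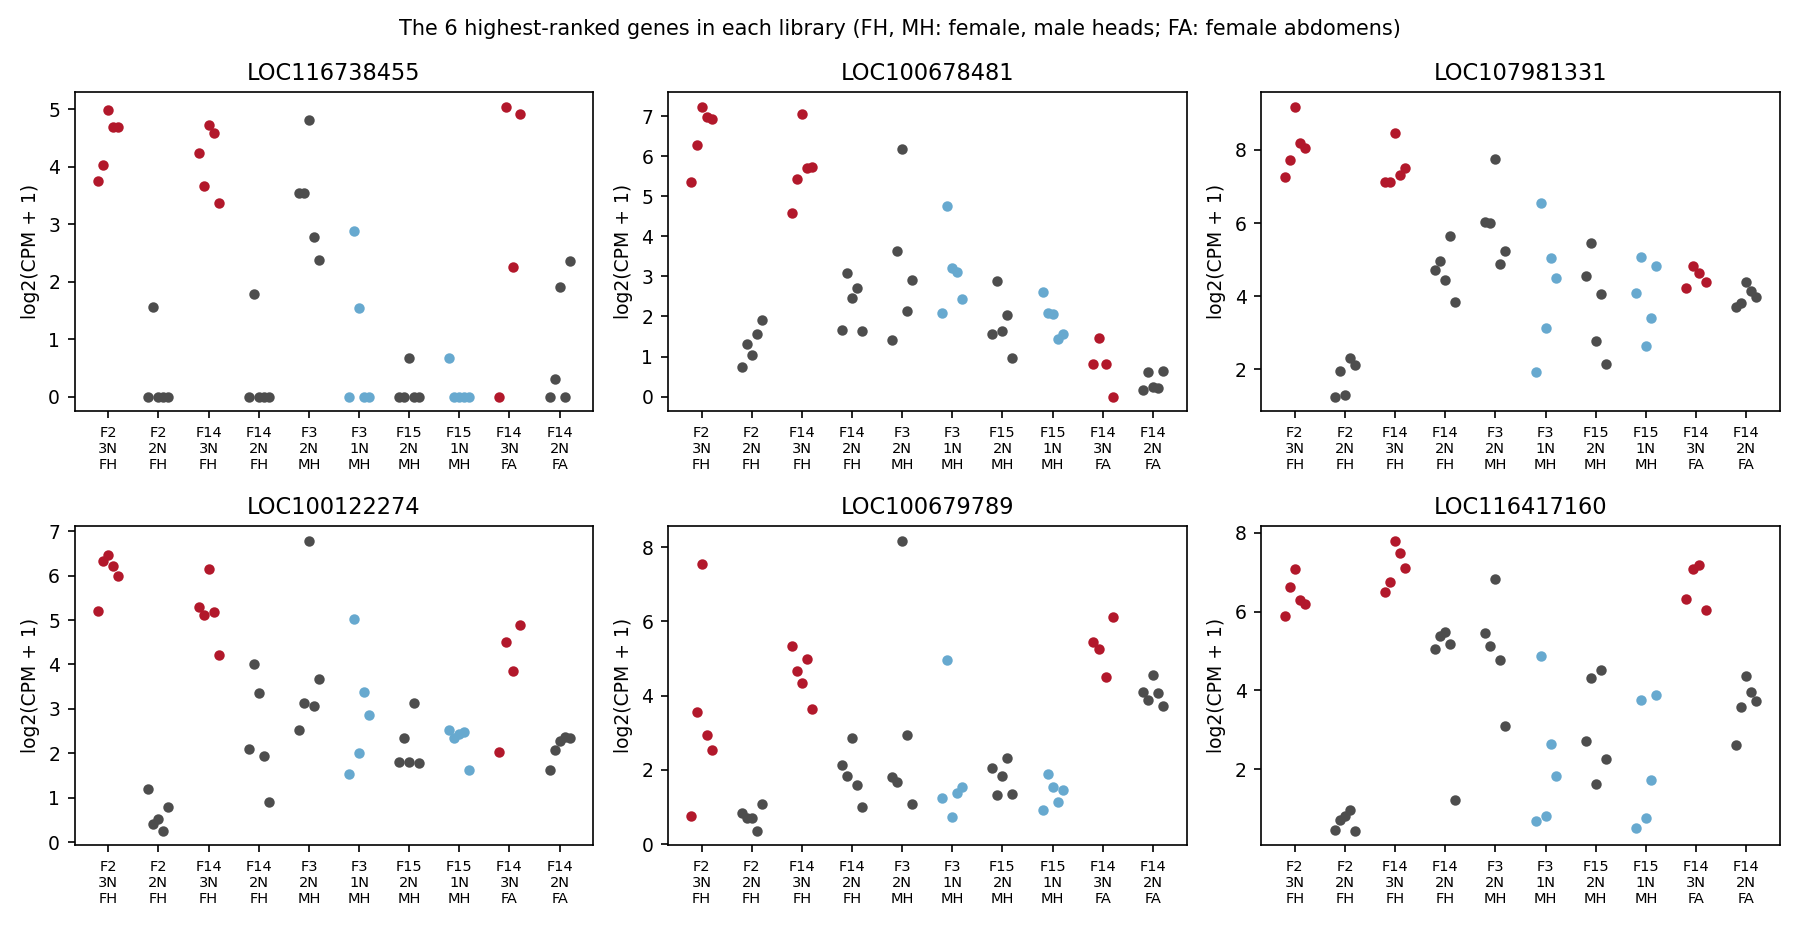
log2(CPM + 1) of the 6 highest-ranked genes in each library of female heads (FH), male heads (MH) and F14 female abdomens (FA), by generation and ploidy. LOC116417160 is high in triploid heads and in F14 triploid abdomens (64.3 to 144 CPM), and D13 is the highest F3 diploid male head in every panel.

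The first question outside the choice was whether the genes were also higher in abdomens of triploid females. At F14 most were. Libraries of triploid abdomens lay above all libraries of diploid abdomens for 75 of the 150 genes (50%), where 8.63% of all genes did, and no member lay below. The difference of mean log2(CPM + 1) was above 0 for 140 of the 150 genes, with a median of 1.07, against -0.01 over all LOC identifiers. In edgeR's quasi-likelihood test, 138 of the 150 genes passed the filter on low counts. Of these, 77.5% rose in triploid abdomens (adjusted p under 0.05 over 10739 genes) and 0 fell, where 21.9% of all genes tested rose and 15.9% fell. Their median log2 fold change was 1.77, against 0.03 for all genes tested. With no filter on low counts all 150 genes were tested, and 72.7% rose and 0 fell, where 16.6% of all genes rose. The unadjusted p was under 0.05 for 82.6% of the 138 genes.

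LOC100123131, a protein-coding gene on chromosome 4, had the smallest adjusted p. It had 102.03, 139.98, 143 and 154 CPM in triploid abdomens, against 39.3, 39.4, 40.04, 46.5 and 47.0 CPM in diploid abdomens, a log2 fold change of 1.76 ± 0.13 (SE, edgeR adjusted p = 1.88e-06). All 4 triploid libraries were above all 5 diploid ones. The F2 triploid abdomens had 12.8 to 16.2 CPM, below both F14 groups.

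LOC100117561, also on chromosome 4, had 51.9, 61.7, 64.4 and 76.2 CPM in triploid abdomens, against 9.11, 9.43, 12.2, 12.8 and 19.6 CPM in diploid abdomens. Its log2 fold change was 2.43 ± 0.24 (edgeR adjusted p = 1.29e-05), again with no overlap. LOC107982175 on the same chromosome had 74.5, 102.7, 127 and 129 CPM in triploid abdomens, against 33.6, 33.9, 37.5, 38.1 and 41.2 CPM in diploid abdomens, a log2 fold change of 1.66 ± 0.17 (edgeR adjusted p = 1.72e-05). Here the F2 triploid abdomens, at 49.5 to 71.3 CPM, lay between both F14 groups.

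Of the 12 highest-ranked genes, 6 rose in F14 triploid abdomens, 5 were not called and 1, LOC103317439, did not pass the filter. The long non-coding RNA LOC116417160 had 64.3, 79.5, 135 and 144 CPM in triploid abdomens, against 5.10, 11, 12.2, 14.5 and 19.7 CPM in diploid abdomens (log2 fold change 3.19 ± 0.39, edgeR adjusted p = 0.00023). It was at 0 in all 5 F2 triploid abdomens. LOC107981331, with the largest difference in F2 heads, was only slightly higher in F14 triploid abdomens, at 17.8 to 27.4 CPM against 12.1 to 19.8 CPM in diploid abdomens (log2 fold change 0.65 ± 0.21, edgeR adjusted p = 0.0258). The gene ranked highest, LOC116738455, was not called: it had 0, 3.77, 29.2 and 32.2 CPM in triploid abdomens, against 0, 0, 0.230, 2.75 and 4.12 CPM in diploid abdomens (edgeR adjusted p = 0.154).

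All 8 members with the most counts in triploid heads rose in F14 triploid abdomens. LOC100118179 had 145, 147, 335 and 421 CPM in triploid abdomens, against 95.1, 95.9, 102.1, 102.9 and 107.9 CPM in diploid abdomens (log2 fold change 1.497 ± 0.27, edgeR adjusted p = 0.00102). LOC100216354 had 8.18, 23.1, 51.8 and 73.0 CPM in triploid abdomens, against 3.29, 5.23, 5.82, 5.91 and 9.24 CPM in diploid abdomens, so that 1 triploid library overlapped with the diploid range. Both genes were far lower in abdomens than in heads.

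In each kind of gene examined, between 66.7 and 86% of the members tested rose. Among members that were higher in male heads than in male abdomens, 55 of 72 rose (76.4%, against 20% of all such genes). Among members that were higher in male abdomens, 19 of 27 rose (70.4%, against 26.7%), and of those not called between the tissues 33 of 39 rose (84.6%, against 16.5%). In 4 equal classes of relative transcript length, from shortest to longest, 86%, 71.1%, 75% and 66.7% of members rose, against 30.7%, 21.1%, 19.1% and 19.3% of all genes. Of the long non-coding RNAs, 16 of 20 rose (80%, against 31.7%). In 4 equal classes of level in F14 diploid abdomens, from lowest to highest, 78.9%, 77.4%, 72.7% and 77.8% of members rose. Of all genes in these classes, 33.3%, 28.8%, 15.1% and 10.4% did. The lowest class held 76 of the members tested. Its median log2 fold change was 2.25 for members and 0.91 for all genes. The classes of level were set by the same diploid libraries that the fold change is measured against. Trends across them are therefore not read as results. Differences between these classes were not tested.

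**Figure D4:**
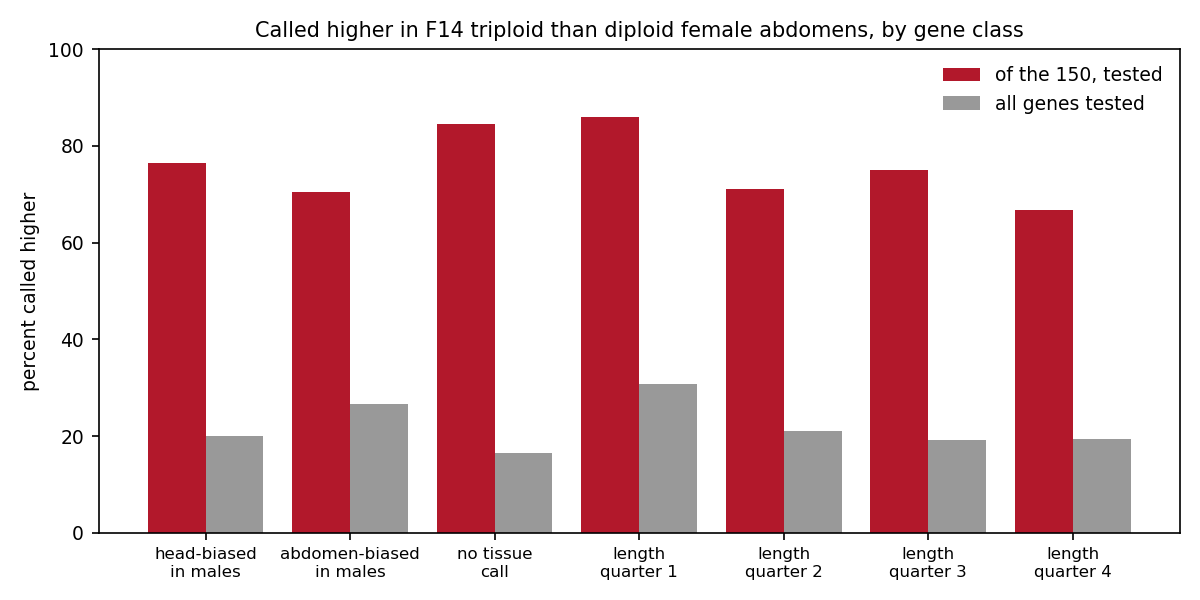
Percent of genes called higher in F14 triploid than in F14 diploid female abdomens (edgeR adjusted p under 0.05), by class in male tissues and by class of relative transcript length (1 shortest, 4 longest), for the members tested (red) and all genes tested (grey). The members lie between 66.7% and 86% in the classes shown and all genes between 16.5% and 30.7%.

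The triploid abdomens fell into a higher and a lower pair. The mean level over the 150 genes was 4.29 in D87, 4.14 in D86, 3.61 in D89 and 3.44 in D90A, against 2.60 to 2.95 in diploid abdomens. Without D86 and D87, an alternative chosen after seeing the data, 67 of 139 genes tested rose (48.2%, where 15.3% of all genes did) and 1 fell. Without D89, 2 fell. With the diploid libraries thinned to the depth of the shallowest triploid library, also chosen afterwards, 77.8% of 135 genes rose and 0 fell, where 21.9% and 15% of all genes did. Markers of other tissues moved with the result, and D87 and D86 were also the triploid libraries highest in muscle markers (3623 and 4163 CPM, against 1831 in D89 and 2414 in D90A). The 4 muscle markers summed to 1831 to 4163 CPM in triploid and 1149 to 1349 CPM in diploid abdomens, and the 4 cuticle and epidermis markers to 8.70 to 109.8 CPM in triploid and 0.478 to 1.44 CPM in diploid abdomens. The 5 neuronal markers summed to 75.9 to 199 CPM in triploid and 81.9 to 93.96 CPM in diploid abdomens. The 2 defensins, antimicrobial peptides, summed to 39.03 to 3211 CPM in triploid and 16.7 to 68.6 CPM in diploid abdomens, and the 2 female germ line markers to 296 to 785 CPM in triploid and 671 to 870 CPM in diploid abdomens. Lop1 stayed at 0 to 2.33 CPM in triploid and 0 to 0.161 CPM in diploid abdomens. The part of muscle, epidermis, immune and germ line tissue in the rise was not tested.

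The F2 abdomens are given as values. The mean level of the 150 genes was 2.78 (2.66 to 2.89) in F2 triploid abdomens, against 2.77 (2.60 to 2.95) in F14 diploid and 3.87 (3.44 to 4.29) in F14 triploid abdomens. Single members went both ways: F2 triploid abdomens lay above F14 diploid ones for 49 members and below them for 49 (32.7% each, where 20.8% and 33.2% of all genes did). F14 triploid abdomens lay above F2 triploid ones for 69 members (46.0%, where 25% of all genes did) and below them for 12 (8%, where 19.9% did). In the libraries labelled F2 diploid female abdomen the mean level was 3.86 (3.71 to 4.05). Against them the F2 triploid abdomens were higher for 57 members and lower for 93, a median difference of -0.71, against -0.02 over all LOC identifiers. The groups did not overlap for 40 members that were higher and 75 that were lower (26.7% and 50%, where 33% and 34.7% of all genes did). These diploid libraries carried the head marker Lop1, and no call was made.

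In F3 male heads the shares of the genes called with ploidy were near those of all genes. Diploid heads were set against haploid heads at F3, and 147 of the 150 genes passed the filter. By edgeR, 16 genes (10.9%) rose in diploid heads and 12 (8.16%) fell, where 9.86% of all genes tested rose and 6.3% fell. The median log2 fold change was 0.36, against 0.02 for all genes. Both counts moved with single libraries, as did those of all genes. The diploid head D13 was the highest of the 10 F3 male heads for 95 members (63.3%, against 23.5% of all genes), and without it 3 genes rose and 20 fell (2.04% and 13.6%, where 7.9% and 9.78% of all genes did), with a median of -0.09, against -0.02 for all genes. Without the haploid head D3, 33 rose and 9 fell (22.4% and 6.12%, where 10.4% and 5.91% of all genes did). Without the haploid heads D5, D1A, D4 and D1 in turn, 5, 5, 6 and 10 rose and 11, 8, 9 and 7 fell, where 5.87 to 8.31% of all genes rose and 3.58 to 5.71% fell. The limma-trend fit on TPM called 10 higher and 17 lower, where 4.63% and 4.14% of all genes were. With only the F3 groups in the fit, 0 rose and 3 fell, where 2.08% and 1.51% of all genes did, and 35 members had an unadjusted p under 0.05. Some tissue markers moved with these libraries, and those of muscle did not. Muscle markers summed to 710 CPM in D13 and 668 to 1408 CPM in the other diploid heads. They summed to 896 CPM in D3 and 678 to 1118 CPM in the other haploid heads. The 4 epidermis markers summed to 30810 CPM in D13 and to 5300 to 12170 CPM in the other diploid heads, and to 15730 CPM in D3 and 2423 to 11750 CPM in the other haploid heads. The 5 neuronal markers were lowest in the same libraries, at 645 CPM in D13 and 1078 CPM in D3. The mean level of the 150 genes was highest in them too, at 5.72 in D13 and 5.08 in D3. The part of epidermal and neuronal tissue in these counts was not tested.

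LOC116416060, a long non-coding RNA on chromosome 1, had 81.9, 88.0, 92.6, 111.02 and 152 CPM in F3 diploid heads, against 28.5, 35.4, 44.8, 53.8 and 68.5 CPM in F3 haploid heads. It rose by 1.20 ± 0.23 on the log2 scale (edgeR adjusted p = 0.00207), without overlap. LOC100122209 had 33.2, 39.9, 40.2, 41.7 and 44.1 CPM in diploid heads, against 20.3, 21.4, 26.1, 28.6 and 31.2 CPM in haploid heads (log2 fold change 0.63 ± 0.15, edgeR adjusted p = 0.00813). With only the F3 groups in the fit, both missed the edgeR threshold, at adjusted p = 0.0508 and 0.0649, and LOC100122209 also missed it in limma-trend on TPM (adjusted p = 0.104). LOC116416141 was called as well, but D13 alone had 208 CPM, against 1.07 to 4.83 CPM in the other diploid and 0.181 to 1.98 CPM in the haploid heads, and without D13 its edgeR adjusted p was 0.418.

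Genes that fell included LOC100678959, with 9.11, 10.4, 11.8, 16.7 and 22.7 CPM in diploid heads, against 36.2, 44.3, 44.9, 45.5 and 47.4 CPM in haploid heads. It fell by 1.68 ± 0.22 on the log2 scale (edgeR adjusted p = 0.000124) with no overlap. LOC100680429 had 17.9, 56.2, 56.8, 70.5 and 72.1 CPM in diploid heads, against 102.9, 105.7, 109.9, 120.1 and 123 CPM in haploid heads, and fell by 1.10 ± 0.22 (edgeR adjusted p = 0.00281, or 0.0514 with only the F3 groups in the fit). LOC116417902 averaged 49.8 ± 16.4 CPM in diploid heads and 90.1 ± 13.7 CPM in haploid heads (SD, n = 5 each) and fell by 0.90 ± 0.15 (edgeR adjusted p = 0.000715). Within the list, genes were thus called in both directions in F3 male heads.

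At F15, 0 of the 147 genes rose and 0 fell in diploid heads, where 0.0182% of all genes rose and 0.0908% fell by edgeR. The unadjusted p was under 0.05 for 14 of them, and DESeq2 called 0 as well. With only the F15 groups in the fit, 2 rose (1.4%, where 0.371% of all genes did). The ploidy difference itself differed between F15 and F3 for 4 genes that were higher at F15 and 1 that was lower, where 1.3% and 2.27% of all genes were. DESeq2 called 11 higher (7.48%, where 3.65% of all genes were). By edgeR, 14 were higher without D13, 7 without D15, 2 without D114 and 1 without D101, where 4.38%, 1.5%, 0.871% and 0.647% of all genes were. LOC116417902 had 51.3 to 69.3 CPM in diploid and 38.7 to 53.7 CPM in haploid heads at F15, the opposite order to F3, and the difference of log2 fold changes was 1.34 ± 0.21 (edgeR adjusted p = 0.00254). LOC103317650 showed the same turn, with 16.6 to 22 CPM in diploid and 12.8 to 16.1 CPM in haploid heads at F15 but 12.9 to 23.8 CPM in diploid and 21.9 to 35.1 CPM in haploid heads at F3. Its difference was 0.96 ± 0.22 (edgeR adjusted p = 0.0231), and the call was lost without D101 or D1A (adjusted p = 0.0599 and 0.051). LOC116416060 had 35 to 49.3 CPM in diploid and 38.2 to 56.0 CPM in haploid heads at F15, a difference of -1.28 ± 0.32 (edgeR adjusted p = 0.0315). That call was lost, at adjusted p of 0.0502 to 0.0651, without D104, D102, D111, D114, D113, D112, D5, D1A or D4 in turn.

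Set against female heads, the mean level of the 150 genes in male heads of both ploidies lay between those of triploid and diploid females. It was 4.84 in F3 diploid and 4.55 in F3 haploid male heads, against 5.72 in F2 triploid and 3.63 in F2 diploid female heads. It was 4.28 in F15 diploid and 4.23 in F15 haploid male heads, against 5.52 in F14 triploid and 4.16 in F14 diploid female heads. F3 diploid male heads lay above F2 diploid female heads for 94 members (62.7%, where 18.6% of all genes did) and below F2 triploid female heads for 29 (19.3%, where 2.87% did). F15 diploid male heads lay above F14 diploid female heads for 17 members (11.3%, where 5.53% did) and below F14 triploid female heads for 85 (56.7%, where 3.78% did). The female libraries in these comparisons chose the genes and males were 1 generation later, so these counts are descriptions. The median differences of mean log2(CPM + 1) were 1.13 against F2 diploid and -0.85 against F2 triploid females, and 0.08 against F14 diploid and -1.16 against F14 triploid females.

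In male abdomens 143 genes passed the filter. At F3, 3 of the 143 genes rose and 4 fell in diploid abdomens by edgeR, where 8.03% of all genes rose and 8.54% fell. Both were smaller shares than those of all genes tested. The median log2 fold change of the members was -0.07. DESeq2 called 3 higher and 9 lower, where 9.45% and 12% of all genes were. Leaving out D120, D119, D7, D6, D20, D19, D18 or D17 in turn moved these counts to 2 to 5 higher and 2 to 7 lower, where 5.15 to 9.68% of all genes were higher and 5.57 to 9.68% lower. LOC116416060 rose here too, with 61.3, 82.3, 93.9, 100.7 and 104.5 CPM in diploid abdomens, against 35.6, 45.8, 46.1, 46.9 and 56.1 CPM in haploid abdomens (log2 fold change 0.88 ± 0.17, edgeR adjusted p = 0.00213). It is the long non-coding RNA that rose in F3 diploid heads. LOC100122998 and LOC100117561 rose as well, each by 0.88 on the log2 scale (edgeR adjusted p = 0.0108 and 0.0207). The call of LOC100117561 was lost without D10, D19 or D17 (adjusted p = 0.0531 to 0.0578). LOC103317439 fell by 1.73 ± 0.36 (edgeR adjusted p = 0.00349), with 2.30, 2.57, 3.53, 3.55 and 4.49 CPM in diploid abdomens, against 6.2, 9.65, 10.2, 12.6 and 14.05 CPM in haploid abdomens. LOC100680405 fell by 1.39 ± 0.36 and LOC103315780 fell by 0.70 ± 0.21 (edgeR adjusted p = 0.0145 and 0.0278). The call of LOC103315780 was lost without D8, D7, D20, D19 or D17 (adjusted p = 0.0546 to 0.0713), and that of LOC100680405 was at the threshold without D6.

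At F15, 16 of the 143 genes rose and 0 fell in diploid male abdomens, where 7.83% of all genes rose and 3.26% fell by edgeR. The median log2 fold change was 0.25, against 0.01 for all genes. With only the F15 groups in the fit, 0 rose, as did 0 of all genes, and 35 members had an unadjusted p under 0.05. The limma-trend fit on TPM called 9 higher and 4 lower, where 4.89% and 7.87% of all genes were. Without D120, D119, D118, D110, D109, D108 and D106 in turn, edgeR called 7, 9, 10, 9, 10, 9 and 8 higher, where 3.62 to 5.66% of all genes were. Without D117 it called 38 higher and 6 lower (26.6% and 4.2%, where 13.7% and 12.6% of all genes were). LOC100679789 had 71.6, 193, 250.5, 302 and 1042 CPM in diploid abdomens, against 37.9, 38.1, 41.5, 51.2 and 84.7 CPM in haploid abdomens (log2 fold change 2.79 ± 0.48, edgeR adjusted p = 0.00356). This gene, of the top 12 in female heads, was higher still in F3 male abdomens, at 620.4 to 1295 CPM in diploid and 591 to 1137 CPM in haploid ones. LOC100119257 had 2.69 to 16.01 CPM in diploid and 1.24 to 2.16 CPM in haploid abdomens (log2 fold change 2.06 ± 0.40, edgeR adjusted p = 0.00501). LOC100120476 had 17.3 to 183 CPM in diploid and 13.8 to 18.3 CPM in haploid abdomens (log2 fold change 2.14 ± 0.43, edgeR adjusted p = 0.00637). In each of these 3 genes D120 was the highest library, and with only the F15 groups in the fit they missed the threshold (adjusted p = 0.069 to 0.0731). Tissue markers moved with the result. The 4 epidermis markers summed to 64.1, 30.1 and 27.6 CPM in D119, D120 and D118 and to 2.39 and 2.36 CPM in D116 and D117, against 1.52 to 3.95 CPM in haploid abdomens. The mean level of the 150 genes ran the same way, at 3.70, 3.45 and 3.33 in D119, D120 and D118 and 3.05 and 2.89 in D116 and D117, against 2.94 to 3.23 in haploid abdomens. Lop1 was at 292 CPM in D119, at 0.350 to 12.2 CPM in the other diploid abdomens and at 0.0425 to 1.29 CPM in haploid abdomens. The part of epidermis and eye in the rise was not tested.

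The ploidy difference in male abdomens was higher at F15 than at F3 for 11 members and lower for 1, where 5.99% and 4.44% of all genes were (edgeR). The limma-trend fit on TPM called 4 higher and 2 lower, where 3.36% and 8.7% of all genes were. Leaving out 1 of 15 libraries in turn moved the higher count by over 1.5 times: it was 21 without D117, where 9.35% of all genes were higher, and 3 to 7 without D110, D109, D108, D107, D106, D120, D119, D118, D8, D7, D20, D19, D18 or D17, where 3.95 to 5.52% were. LOC100119257 differed by 2.37 ± 0.55 (adjusted p = 0.013, or 0.0617 in limma-trend on TPM) and LOC100119306 by 1.10 ± 0.26 (adjusted p = 0.016). LOC100119306 had 25.7 to 60.2 CPM in diploid and 23.8 to 34.7 CPM in haploid abdomens at F15, but 26.8 to 48.1 CPM in diploid and 38.3 to 54.7 CPM in haploid abdomens at F3. LOC116416068 differed by -0.97 ± 0.24 (adjusted p = 0.0179), with 4.24 to 5.44 CPM in diploid and 5.14 to 7.70 CPM in haploid abdomens at F15.

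**Figure D5:**
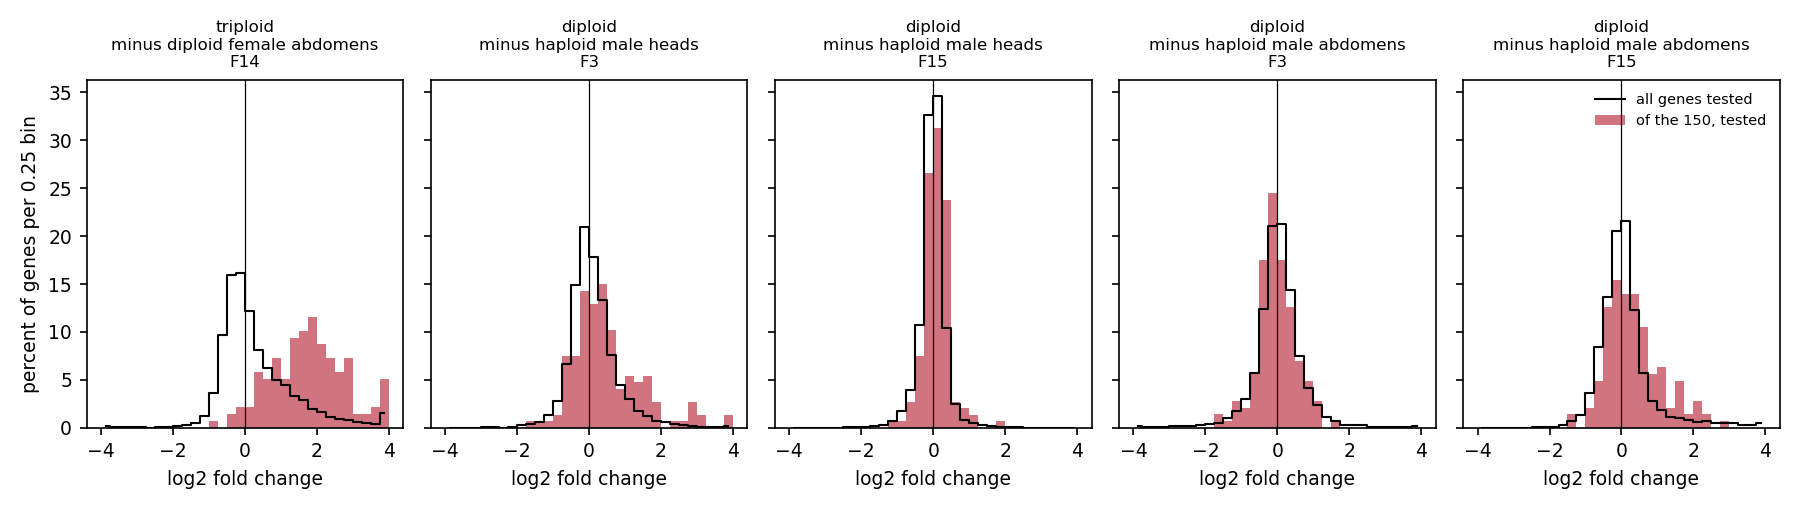
Percent of genes per 0.25-wide bin of edgeR log2 fold change in 5 ploidy comparisons, for the members tested (red) and all genes tested (black line), with values beyond 4 placed in the end bins. The members are shifted to the right in F14 female abdomens (median 1.77), and their medians in males run from -0.07 to 0.36.

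In males, over ploidy and generation, heads were set against abdomens, and all 150 genes were tested. By edgeR 81 were higher in heads than in abdomens and 28 were lower, where 40.2% of all genes were higher and 42.2% lower. The median log2 difference, heads minus abdomens, was 0.64, against -0.03 for all genes. LOC107982113 averaged 45.9 ± 8.78 CPM in heads and 4.99 ± 1.07 CPM in abdomens (SD, n = 20 each), a log2 difference of 2.92 ± 0.10 (edgeR adjusted p = 3.08e-25). LOC100116487 averaged 123 ± 26.8 CPM in heads and 4.29 ± 2.48 CPM in abdomens, and LOC100121159 averaged 213 ± 53.2 CPM in heads and 28.3 ± 6.55 CPM in abdomens. These genes were higher in all heads than in any abdomen. On the other side, LOC100115155 averaged 84.8 ± 25.2 CPM in heads and 471 ± 177 CPM in abdomens, a log2 difference of -2.79 ± 0.13 (edgeR adjusted p = 7.98e-21). LOC100114980 and LOC100122282 had log2 differences of -2.40 and -2.76. Without D13, 80 members were higher in heads and 43 lower, where 40.6% and 43.9% of all genes were. The limma-trend fit on TPM called 68% of members higher and 17 members lower, where 59% and 26.4% of all genes were. All 150 genes were chosen by their levels in female heads. Each averaged 1 CPM or more in triploid heads of both generations, which was not asked of all genes tested. How far the choice itself sets the share higher in heads was not tested. The list held genes with more RNA in heads and genes with more RNA in abdomens.

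Across comparisons, 11 of the 16 genes that rose in F3 diploid male heads also rose in F14 triploid abdomens (68.8% of these 16, and 10.3% of all members that rose in F14 triploid abdomens). Of the 12 that fell in those heads, 6 rose in F14 triploid abdomens (50% and 5.61%). Of the 16 that rose in F15 diploid male abdomens, 11 did (68.8% and 10.3%). Of all members tested in F14 abdomens, 77.5% rose in triploids. The shares for F3 male heads also count genes not tested in F14 abdomens, so they cannot be set directly against it. These were LOC103317439 and LOC100679260 among those that rose in F3 heads, and LOC107980680 and LOC100117476 among those that fell.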

How the data were processed

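Poly(A) RNA-seq of 79 libraries was analysed from tables the authors deposited. Per the submitters' processing notes, reads were processed with STAR 2.7.11a and RSEM 1.3.1, with no genome build given in the sources used here. The deposited expected counts (14621 genes) are not normalized, and the deposited TPM values (14613 genes) are scaled per length and library by RSEM. Expected counts were rounded to whole numbers for testing. Depth was 12.6 to 95 M counts per library, and the spread between libraries sets the precision. The 13792 LOC identifiers all matched RefSeq annotation Nvit_psr_1.1, which gave biotype, chromosome and neighbours but no product names.

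Tests were edgeR 4.0.16 quasi-likelihood F tests in R 4.3.3 (robust, filterByExpr with minimum count 10 and total 15, TMM), one-way over the 4 groups of a sex and tissue, or 3 groups for female abdomens (without the F2 diploid libraries) and 8 for male tissues. P-values were adjusted by Benjamini-Hochberg over every gene in the fit, with calls under 0.05. Alternatives were DESeq2 1.42.0, RLE scaling, no filter, limma 3.58.1 (limma-trend) on log2(TPM + 1), the compared groups alone, and each library left out. Across 156 replicate pairs, the chi-square over its degrees of freedom was at least 7.57, so no library was counted as a repeat. Relative transcript length is the ratio of counts to TPM within a library over that of the median gene, taken as the median over female heads.

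Members and lists were chosen with earlier results of these data known. Named genes were the 12 with the highest lower difference, the 8 with the most counts in triploid heads, the genes at the edge of the list, and for each test up to 3 called each way by adjusted p (2 for differences between generations) with at least 1 CPM in the higher group. Planned lists by product name or protein were not used here for want of product names.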

Additional observations from a re-analysis of the deposited data

Results flagged for a closer look

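The 12 highest-ranked genes in 8 groups and the mean level of the list in 16 groups were examined for a library far from the other libraries of its group. One was seen in 31 cases. In a single group chance gives about 1 in 20, but the 31 cases are not independent (11 are of library D13), and the female head libraries chose and ranked these genes, so their number is not read against that rate. Library D13 of the F3 diploid male heads was far above its group for the mean level of the 150 genes (5.72) and for the genes that follow. It had 27.2 CPM of LOC116738455, 71.7 CPM of LOC100678481, 214 CPM of LOC107981331, 109.5 CPM of LOC100122274 and 287.5 CPM of LOC100679789. It also had 114.001 CPM of LOC103317439, 40.6 CPM of LOC116417251, 208 CPM of LOC116416141, 37.1 CPM of LOC103315841 and 204 CPM of LOC100118466.

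Library D82B of the F14 triploid female heads was far above its group for LOC100678481 (133 CPM), LOC107981331 (353 CPM), LOC103317439 (313 CPM), LOC116417251 (61.4 CPM), LOC103315841 (98.8 CPM) and LOC100118466 (244 CPM). Library D3 of the F3 haploid male heads was far above its group for LOC100678481 (26.2 CPM), LOC100122274 (31.7 CPM), LOC100679789 (30.3 CPM), LOC116417160 (28.2 CPM), LOC116417251 (7.98 CPM) and LOC103315841 (7.28 CPM). In F2 triploid female heads, D33 was far above for LOC100679789 (186 CPM) and LOC103317439 (161 CPM), and D32 for LOC116416141 (317 CPM).

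In diploid female heads, LOC116738455 was seen in D23 at F2 (1.95 CPM) and D94 at F14 (2.43 CPM) and was at 0 in the other libraries of those groups. LOC103315841 was at 1.12 CPM in D22 at F2, LOC116417160 was low in D91 at F14 (1.32 CPM), and LOC116416141 was low in D5 of the F3 haploid male heads (0.181 CPM).

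The ploidy difference differed between F15 and F3 by edgeR's test of that difference for 3 named genes in male heads: LOC116417902 (1.34), LOC103317650 (0.96) and LOC116416060 (-1.28). In male abdomens it did for LOC100119257 (2.37), LOC100119306 (1.10) and LOC116416068 (-0.97).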

How the results depend on the processing

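Alternatives were run for 30 calls of named genes, and none changed sign: calls were kept in 817 repeats and lost in 31. These repeats include 44 for each call between male tissues, and runs without a library that was in neither compared group. The genes were also named for their small adjusted p, so the tally does not measure how firm the ploidy calls are. The other named genes were not part of this count. A repeat that gave a gene no adjusted p was left out. For this reason LOC116416141 in F3 male heads had 24 repeats where LOC100122209 had 25. In F3 male heads the median over members and the balance of calls did turn, at 0.36 with all libraries and -0.09 without D13. Of the 150 genes, 124 to 147 stayed in the list when a female head library was left out, 127 without D31 and D32, 124 with TPM and 110 with TMM scaling, and 70% and 78.7% with a pseudocount of 0.1 and 5.

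Limma-trend on TPM moved the median of all genes to -0.22 in F14 female abdomens, -0.14 in F3 male heads, 0.19 for the difference between generations in male heads, -0.10 for that in male abdomens and 0.45 between male tissues. With it, the members called were 10 higher in F3 male heads, 7 higher and 7 lower in F3 male abdomens, 9 higher and 4 lower in F15 male abdomens, 4 higher and 2 lower for the difference between generations in male abdomens, 3 lower in F14 female abdomens and 17 lower in male heads than in male abdomens. In that TPM fit 95 members were higher in F14 female abdomens, and 68% were higher in male heads than in male abdomens. With DESeq2, 11 were higher for the difference between generations in male heads, 9 lower in F3 male abdomens, 1 lower in F15 male abdomens, and 18 higher and 2 lower for the difference in male abdomens. With the compared groups alone, 0 were higher and 3 lower in F3 male heads, 2 higher in F15 male heads, 5 higher and 10 lower in F3 male abdomens and 0 higher in F15 male abdomens. Without D86 and D87, 67 were higher and 1 lower in F14 female abdomens. Shares of all genes called, given in the Results for several of these settings, moved between settings as well. None is given for F3 male abdomens with limma-trend or the compared groups alone, or for F14 female abdomens with limma-trend. The same holds for DESeq2 in F15 male abdomens and for the difference in male abdomens, and for the lower count without D86 and D87. Those counts have no background here. The counts in this paragraph are therefore not read as results about the members. The cause of these moves was not tested.

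Leaving out each library gave 3 to 33 higher and 7 to 20 lower in F3 male heads, 0 to 1 higher and 0 lower in F15 male heads, and 1 to 14 higher and 0 to 1 lower for their difference. In male abdomens it gave 2 to 5 higher and 2 to 7 lower at F3, 7 to 38 higher and 0 to 6 lower at F15, and 3 to 21 higher and 1 to 2 lower for the difference. It gave 0 to 2 lower in F14 female abdomens, and 80 to 84 higher and 25 to 43 lower between male tissues. Shares of all genes called, given in the Results for several of these runs, moved too, so these ranges are not read as results about the members. No paired analysis was possible because the labels carry no replicate number shared between groups.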
